A study of Canis lupus familiaris and Felis catus with 4 samples.

Results

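The miR-23, miR-27 and miR-24 clusters were examined in small RNA libraries of urinary exosomes from cats and dogs with kidney disease (KD) and with normal renal function (NR). The members were fixed by name as the 5 guide-side 3p miRNAs of these clusters, mmu-miR-23a-3p, mmu-miR-23b-3p, mmu-miR-27a-3p, mmu-miR-27b-3p and mmu-miR-24-3p (the prefix for mouse is left off below), out of 1898 mature miRNA names in the table. They occupy 6 of its 2031 entries because miR-24-3p is listed at 2 places, and the reads of both were summed. All 5 had reads, among 255 names that had a read in any library. Urinary exosomes are vesicles shed into urine, here enriched from urine with a column kit, and each group was pooled into 1 library. The groups were KD cats (45 animals), NR cats (43), KD dogs (47) and NR dogs (37), all patients for which the labels give kidney status and species but no treatment or age. In cats the study's methods assigned KD by serum creatinine and urea together with the veterinary diagnosis, so the KD cat pool mixes stages of disease. The study also reports that its KD cats were older and lighter than its NR cats. How the dogs were assigned is not given in the sources used here.

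Each cluster is made as 1 primary transcript that is cut into hairpins for a miR-23, a miR-27 and a miR-24. The a cluster (miR-23a, miR-27a, miR-24-2) and the b cluster (miR-23b, miR-27b, miR-24-1) are copies of each other in mammals, and their miRNAs are known from endothelium, muscle, blood cells and fat. miR-27a and miR-27b repress lipid and adipocyte genes such as PPARG, miR-23a represses ubiquitin ligases of muscle wasting, miR-23b dampens inflammatory signalling, and miR-24 acts on cell survival and proliferation.

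The sequences below show why the a and b copies are hard to tell apart while miR-23, miR-27 and miR-24 are not. They are the mouse sequences given in the deposited table on build mm10, 5′ to 3′, with the seed (bases 2 to 8, the part that pairs with targets) in capitals.
miR-23a-3p: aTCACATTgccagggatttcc
miR-23b-3p: aTCACATTgccagggattacc
miR-27a-3p: tTCACAGTggctaagttccgc
miR-27b-3p: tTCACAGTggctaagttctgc
miR-24-3p: tGGCTCAGttcagcaggaacag
Counting from 1 at the 5′ end, miR-23a-3p and miR-23b-3p differ by T19A alone, and miR-27a-3p and miR-27b-3p by C19T alone. A read that ends before base 19 cannot be placed on one copy. The seeds of miR-23a-3p and miR-27a-3p differ only by T7G, but over their whole 21 bases these 2 miRNAs differ at 10 positions. No other name in the table had the miR-23 or the miR-27 seed. The miR-24 seed occurred in 4 names, and miR-24-3p was the only one with reads.

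On mm10 the b cluster lies on the plus strand of chromosome 13, where its 3 hairpins span 781 bases from 63300492 to 63301272. miR-23b-3p lies at chr13:63300529-63300549, miR-27b-3p at chr13:63300760-63300780 and 1 copy of miR-24-3p at chr13:63301251-63301272. The a cluster spans 370 bases of the plus strand of chromosome 8, from 84208527 to 84208896. There miR-23a-3p lies at chr8:84208563-84208583, miR-27a-3p at chr8:84208727-84208747 and the other copy of miR-24-3p at chr8:84208875-84208896. In the RefSeq gene table of the dog (UU_Cfam_GSD_1.0), MIR23A, MIR27A and MIR24-2 follow each other with no gene between them, and so do MIR24-1, MIR27B and MIR23B. The same 2 clusters are thus annotated in the dog. The cat genome was not used here.

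One member, mmu-miR-27b-3p, made up most of the reads in every library. It had 171 reads in KD cats, 417 in NR cats, 257 in KD dogs and 96 in NR dogs. It ranked 7th, 9th, 19th and 17th among the names of these libraries. Its share of the reads of all 5 members was 91.9% in KD cats (95% exact binomial interval 87.0 to 95.4%), 89.1% in NR cats (85.9 to 91.8%), 84.3% in KD dogs (79.7 to 88.2%) and 76.8% in NR dogs (68.4 to 83.9%). These intervals, and all those that follow, cover counting error only and not the spread between animals, since each group is 1 library and no test was possible.

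The other 4 members had between 0 and 27 reads in a library. mmu-miR-27a-3p had 8 reads in KD cats, 13 in NR cats, 27 in KD dogs and 8 in NR dogs. mmu-miR-23b-3p had 2 reads in KD cats, 20 in NR cats, 13 in KD dogs and 9 in NR dogs. mmu-miR-23a-3p had 0 reads in KD cats, 10 in NR cats, 7 in KD dogs and 8 in NR dogs. The order of the 4 thus changed between libraries, with miR-27a-3p first in KD cats and KD dogs and miR-23b-3p first in NR cats and NR dogs. The counting intervals of neighbours in this order overlapped in every library. mmu-miR-24-3p had 5 reads in KD cats, 8 in NR cats, 1 in KD dogs and 4 in NR dogs, over both places. Its reads were divided between the a and the b place as 2 and 3 in KD cats, 3 and 5 in NR cats, 1 and 0 in KD dogs, and 1 and 3 in NR dogs. The sequence is the same at both places, so this division carries no information on which cluster the reads came from.

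The authors placed the reads of both species on the mouse genome and multiplied each library's counts by 1 factor, which was 2.36 for KD cats, 1.16 for NR cats, 0.531 for KD dogs and 0.689 for NR dogs. Levels below are reads times this factor. The libraries held between 18704 and 63355 mature miRNA reads. A count of 0 in KD cats allows up to 3 reads, a normalized level of 7.07 or 0.0126% of the reads. Among names fixed as markers of cell types, the 2 endothelial ones had at most 4 reads in any library. The 4 names of kidney tubules varied widely. miR-30a-5p had between 585 and 1749 reads, miR-192-5p between 19 and 737, miR-204-5p between 8 and 53 and miR-194-5p between 0 and 24.

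**Figure D1:**
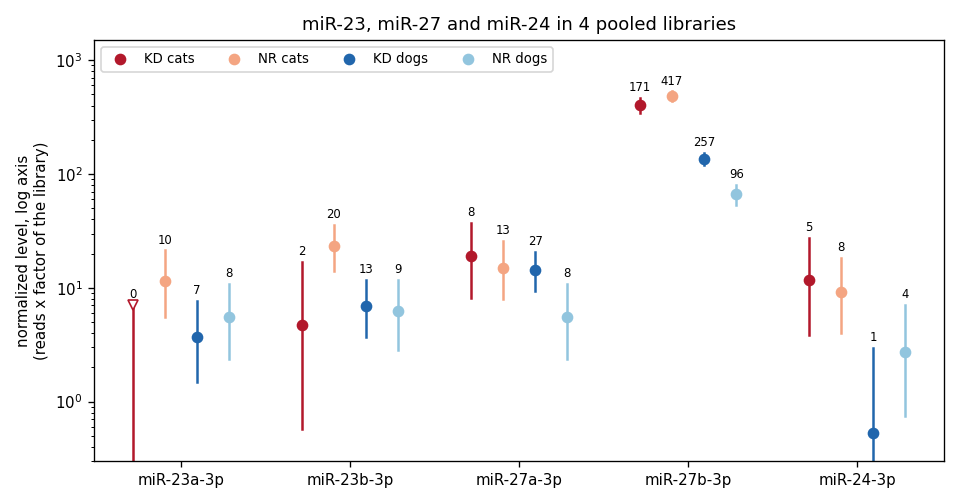
Normalized level (reads times the factor of the library, log axis) of the 5 members in KD cats, NR cats, KD dogs and NR dogs, 1 pooled library each. Points are levels, vertical lines are 95% Poisson intervals of the count (cut at the lower edge of the axis), the numbers are reads, and the open triangle marks the limit of 7.07 that 0 reads of miR-23a-3p allow in KD cats. miR-27b-3p stands above the other 4 members in every library.

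In cats, the question was whether the members differed between KD and NR. miR-23b-3p was lower in KD cats, while miR-27b-3p changed as the typical miRNA did and miR-27a-3p and miR-24-3p had intervals that include no change. The level of miR-23b-3p was 4.71 in KD cats and 23.2 in NR cats, which is a log2 fold change of -2.30 with a 95% interval from -5.44 to -0.26. That interval lay below 0 under 6 of 7 scalings and included 0 when miR-10, miR-486 and miR-3107 were left out of the total, at -1.77 (-4.91 to 0.28). miR-23a-3p, at 0 reads in KD cats and a level of 11.6 in NR cats, was 1.64-fold lower in KD cats when the 0 is set at 3 reads. This value takes the 10 reads in NR cats as exact and has no counting interval. It shrank to a log2 value of -0.18 when miR-10, miR-486 and miR-3107 were left out of the total. Both miR-23 copies thus had lower point values in KD cats. Together they had 2 reads in KD cats and 30 in NR cats, a log2 fold change of -2.88 (-5.99 to -0.90). The sum was lower in KD cats by over 2-fold under each of 7 scalings, with log2 values from -4.25 to -2.35, and its interval lay below 0 under all 7. All 7 rest on the same 2 and 30 reads, and the sum was chosen after the values of the single members were seen.

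miR-27b-3p, the abundant member, had a level of 403 in KD cats and 483 in NR cats, a log2 fold change of -0.26 (-0.53 to -0.00). The median over the 73 names with a mean level of at least 10 was also -0.26, so relative to that median miR-27b-3p was at 0.00. Under the other scalings the median itself moved between -1.64 and 0.27 in cats, and miR-27b-3p stayed within 0.10 of it. miR-27a-3p had levels of 18.9 in KD cats and 15.1 in NR cats, a log2 fold change of 0.32 (-1.15 to 1.71). miR-24-3p had levels of 11.8 in KD cats and 9.26 in NR cats, a log2 fold change of 0.35 (-1.61 to 2.14). Neither had a direction that held over the scalings, as each was higher under 5 of 7 and lower under 2. Of the 4 members with a mean level of at least 10, 1 was lower and 0 were higher by over 2-fold. The same was true of 31.5% (lower) and 21.9% (higher) of all 73 names, and a count of 1 in 4 is near that background. With total count scaling 4 of 4 members were lower by over 2-fold, beside 51 of all 74 names. On read counts 2 of 3 members were, beside 36 of all 60 names.

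In dogs, miR-27b-3p and miR-27a-3p had higher normalized levels in KD, on a scale on which most names were higher in KD dogs. miR-27b-3p had a level of 136 in KD dogs and 66.2 in NR dogs, a log2 fold change of 1.04 (0.70 to 1.40). miR-27a-3p had levels of 14.3 in KD dogs and 5.51 in NR dogs, a log2 fold change of 1.38 (0.20 to 2.73). The median over 49 names was 0.98, and relative to it miR-27b-3p was at 0.06 and miR-27a-3p at 0.40. Both turned lower in KD dogs under at least 1 scaling, miR-27b-3p under 2 of 7 and miR-27a-3p under 1. miR-27b-3p was the only member with a mean level of at least 10. It is 1 of the names higher by over 2-fold, which were 49.0% of the 49, and 0% were lower.

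The remaining members had smaller or negative log2 values in dogs. miR-23b-3p had levels of 6.90 in KD dogs and 6.20 in NR dogs, a log2 fold change of 0.15 (-1.18 to 1.56). miR-23a-3p had levels of 3.72 in KD dogs and 5.51 in NR dogs, a log2 fold change of -0.57 (-2.26 to 1.09). Both intervals include 0 with the deposited factors, and relative to the median they were at -0.83 for miR-23b-3p and -1.55 for miR-23a-3p. Together the miR-23 copies had 20 reads in KD dogs and 17 in NR dogs, a log2 fold change of -0.14 (-1.15 to 0.88). The interval of this sum lay below 0 under 3 of 7 scalings. miR-24-3p had levels of 0.531 in KD dogs and 2.76 in NR dogs, a log2 fold change of -2.38 (-8.00 to 0.96) that rests on 1 and 4 reads. miR-23a-3p and miR-24-3p were lower in KD dogs under each of the 7 scalings, and their intervals lay below 0 under 2 scalings each.

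**Figure D2:**
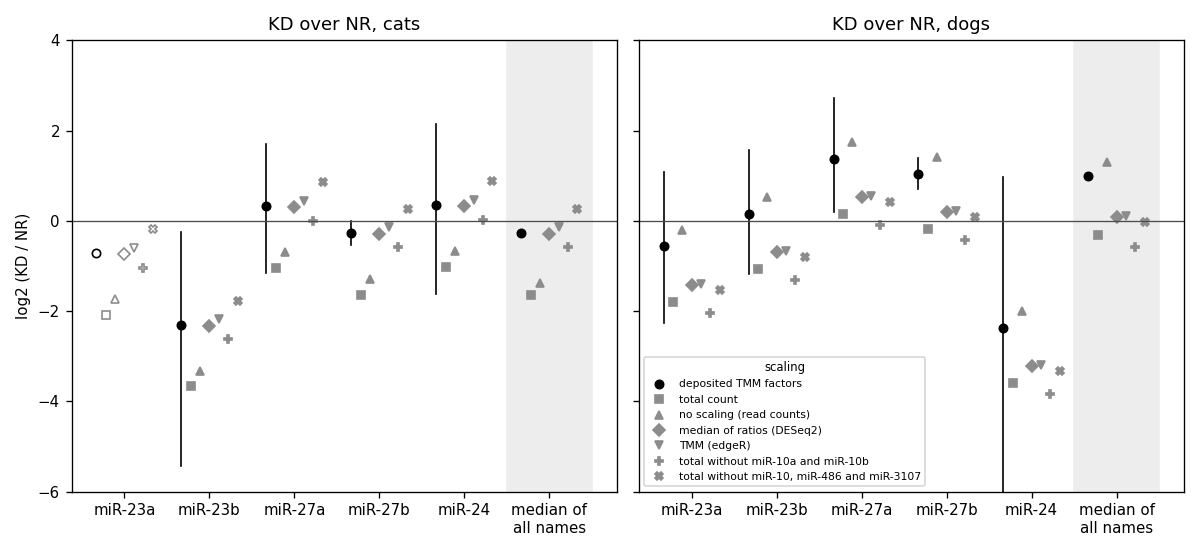
Log2 of the KD over the NR level for each member in cats (left) and dogs (right) under 7 scalings, with the median of all names with a mean level of at least 10 on the grey ground. Black points are the deposited factors with their 95% counting interval (cut at the lower edge of the axis), grey points are the other scalings, and open points are bounds for miR-23a-3p, which had 0 reads in KD cats. The points of miR-27b follow the median of all names in both species, and those of miR-23b lie below it.

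Ratios of 2 members within a library do not depend on the scaling. The miR-23 pair had fewer reads per read of the miR-27 pair in KD than in NR, in both species. This sum of the pairs was chosen after the values of the single members were seen. In KD cats there were 2 reads of the miR-23 pair and 179 of the miR-27 pair, against 30 and 430 in NR cats, an odds ratio of 0.160 (95% exact interval 0.0184 to 0.644). In KD dogs there were 20 and 284 reads, against 17 and 104 in NR dogs, an odds ratio of 0.432 (0.206 to 0.915). Both intervals lie below 1, and the one in dogs ends close to it. Adding the 5p arms left the log2 odds ratio at -2.63 in cats and -1.20 in dogs. The 5p arms of miR-23 had 0 reads and those of miR-27 had few, so this step could move the ratio little.

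The 8 pairs of single members gave less. In cats 0 of 8 pairs had an interval that excludes 1, and 3 of the 8 had no estimate because miR-23a-3p was at 0 in KD cats. miR-23b-3p to miR-27b-3p had an odds ratio of 0.244 (0.0274 to 1.02) for KD over NR cats. miR-23a-3p to miR-27a-3p had 0 and 8 reads in KD cats, against 10 and 13 in NR cats, and the upper limit of its odds ratio was 1.01. In dogs 2 of 8 pairs had an interval below 1, both with miR-24-3p on top. They were miR-24-3p to miR-27b-3p at 0.0941 (0.00189 to 0.966) and miR-24-3p to miR-27a-3p at 0.0803 (0.00145 to 0.955), and both rest on the 1 read of miR-24-3p in KD dogs. In cats the ratio of miR-24-3p to miR-27b-3p had an odds ratio of 1.52 (0.386 to 5.37).

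The share of reads placed on the a copy differed between the miR-23 and miR-27 families. The copies of a family differ at 1 base only, and how reads that end before it were counted is not given. The shares are thus those of reads as placed, and may not be those of the 2 clusters. For miR-27 the a copy was a small part, 4.47% of 179 reads in KD cats (1.95 to 8.62%), 3.02% of 430 in NR cats (1.62 to 5.11%), 9.51% of 284 in KD dogs (6.36 to 13.5%) and 7.69% of 104 in NR dogs (3.38 to 14.6%). For miR-23 the a copy held 33.3% of 30 reads in NR cats (17.3 to 52.8%), 35.0% of 20 in KD dogs (15.4 to 59.2%) and 47.1% of 17 in NR dogs (23 to 72.2%). In these 3 libraries the intervals of the 2 families do not overlap. KD cats had only 2 reads of miR-23, both on the b copy, too few to place the share. Between KD and NR the odds ratio of miR-27a-3p to miR-27b-3p was 1.5 in cats (0.529 to 3.99) and 1.26 in dogs (0.533 to 3.32), and that of miR-23a-3p to miR-23b-3p was 0.614 in dogs (0.132 to 2.75). A change of the a share with KD was therefore not detectable at this depth. Between the species, the odds of miR-27a-3p to miR-27b-3p in dogs over cats were 2.24 in KD (0.962 to 5.85) and 2.67 in NR (0.931 to 7.17), with intervals that just include 1.

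**Figure D3:**
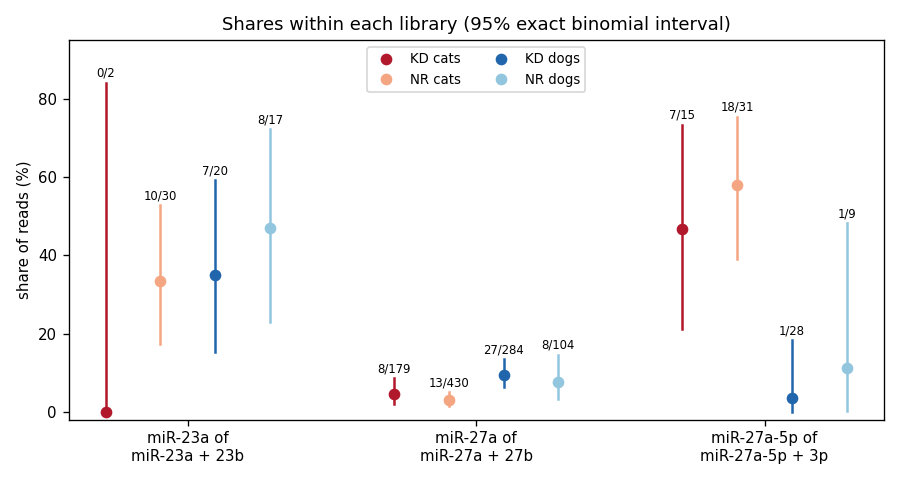
Share of the a copy in the reads of miR-23 and of miR-27, and share of the 5p arm in the reads of miR-27a, in percent, for KD cats, NR cats, KD dogs and NR dogs. Points are shares, lines are 95% exact binomial intervals, and the numbers are reads of reads. miR-27a is at 3.02 to 9.51% of miR-27, and the 5p arm of miR-27a is at 46.7 and 58.1% in the cat libraries and at 3.57 and 11.1% in the dog libraries.

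Mates of the b cluster had uneven reads, by an amount that depends on how miR-24-3p is counted. With each place of miR-24-3p in its own cluster, miR-27b-3p over the lowest mate was 85.5-fold in KD cats (171 and 2 reads, the lowest being miR-23b-3p), 83.4-fold in NR cats (417 and 5), at least 85.7-fold in KD dogs (257 and 0, with the 0 set at 3 reads) and 32.0-fold in NR dogs (96 and 3). In the last 3 libraries the lowest mate was the miR-24-3p entry of the b cluster. For comparison, all other groups of hairpins on the same strand within 10 kb of each other, with at least 10 reads per mate over the 4 libraries, had a median spread of 6.17-fold over 20 clusters in KD cats, 4.5-fold over 21 in NR cats, 5.5-fold over 21 in KD dogs and 9.48-fold over 20 in NR dogs. On that count 2 of the other clusters were more uneven than the b cluster in KD cats, 1 in NR cats, 1 in KD dogs and 2 in NR dogs. As the split of miR-24-3p between its places carries no information, 2 other counts were added after the values were seen. With its reads of both places summed, the spread of the b cluster was 85.5-fold in KD cats, 52.1-fold in NR cats, 257-fold in KD dogs (on 1 read of miR-24-3p) and 24-fold in NR dogs, and 2, 2, 0 and 4 other clusters were more uneven. With miR-24-3p left out, miR-27b-3p over miR-23b-3p was 85.5-fold in KD cats, 20.9-fold in NR cats, 19.8-fold in KD dogs and 10.7-fold in NR dogs, and 2, 6, 8 and 8 other clusters were more uneven. The b cluster was thus above the median of the other clusters on each count, but its place among the most uneven ones in NR cats and both dog libraries rests on miR-24-3p. The spread that a cluster can show is limited by the reads of its highest mate. Some other clusters had few, such as let-7b-5p and let-7c-5p with 4 and 0 reads in KD cats. The b cluster also has 3 mates where most others have 2. Clusters of like depth and size were not compared apart. Among the more uneven other clusters were miR-30b-5p with miR-30d-5p in KD cats (123-fold), 1 of the 2 miR-181a-5p and miR-181b-5p clusters in NR cats (93.5-fold), and miR-191-5p with miR-425-5p in KD cats (355 and 0 reads, at least 118-fold), KD dogs (109.7-fold) and NR dogs (153.5-fold). A lowest mate at 0 was set at 3 reads in the other clusters too, so that some of their values, and the one of the b cluster in KD dogs, are lower bounds.

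In the a cluster miR-27a-3p and miR-23a-3p differed by 1.30-fold in NR cats (13 and 10 reads), 3.86-fold in KD dogs (27 and 7) and 1.00-fold in NR dogs (8 each). In KD cats the ratio was at least 2.67-fold, from 8 reads and 0. In NR cats 19 of 21 other clusters were more uneven, in KD dogs 14 of 21 and in NR dogs 20 of 20. The highest mate of the a cluster had at most 27 reads, which limits the spread it can show. The a place of miR-24-3p had under 10 reads in all and did not enter this comparison. With it, the spread of the a cluster was 4.33-fold in NR cats, 27-fold in KD dogs and 8-fold in NR dogs, and with miR-24-3p summed over both places it was 1.62-fold, 27-fold and 2-fold in these libraries.

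**Figure D4:**
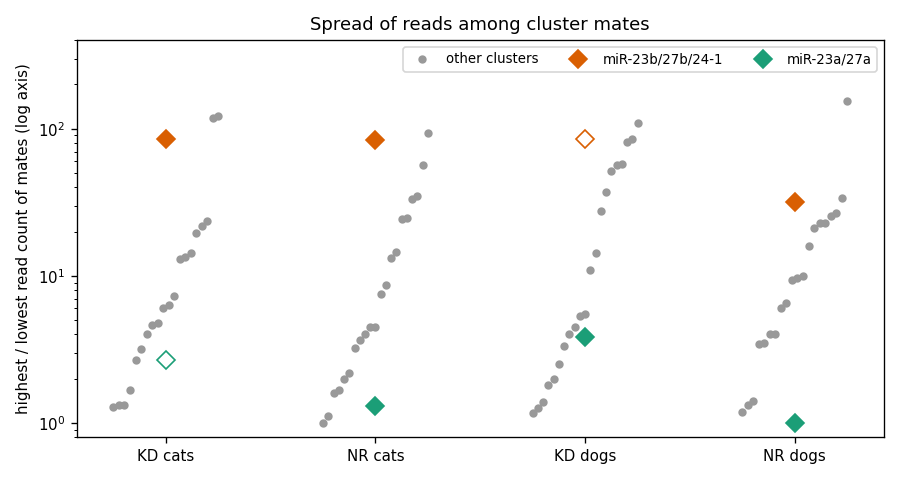
Highest over lowest read count among the mates of a cluster (log axis) in KD cats, NR cats, KD dogs and NR dogs. Grey points are other clusters in order of their spread, orange diamonds the b cluster (miR-23b, miR-27b, miR-24-1) and green diamonds the a cluster (miR-23a, miR-27a). Open diamonds are lower bounds, where the lowest mate had 0 reads and was set at 3. The b cluster, with miR-24-3p counted at its own place, is at 85.5, 83.4, at least 85.7 and 32.0, above most grey points. The a cluster without miR-24-3p is at least at 2.67 in KD cats and at 1.30, 3.86 and 1.00 in the other libraries.

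The other arms of the same hairpins were nearly without reads, except miR-27a-5p in cats. Of 9 such names, counting the opposite-strand neighbours of miR-24 (miR-3074), 3 had a read in cats and 1 in dogs. miR-27a-5p had 7 reads in KD cats and 18 in NR cats, 46.7% (21.3 to 73.4%) and 58.1% (39.1 to 75.5%) of the reads of its hairpin. In the dog libraries it had 1 read each, 3.57% in KD dogs (0.0904 to 18.3%) and 11.1% in NR dogs (0.281 to 48.2%). The 5p arm of miR-27a was thus about as frequent as the 3p arm in both cat libraries and rare in both dog libraries. The odds of 5p to 3p in dogs over cats were 0.0463 in KD (0.000907 to 0.440) and 0.0954 in NR (0.00193 to 0.857). This comparison was made after the values were seen. Of 10 hairpins with at least 10 reads on each arm, 2 had odds below 1 beyond the interval in both KD and NR, miR-27a and miR-486, and 0 had odds above 1 in both. miR-27a passed this filter through cats, which held 7 and 18 of its 27 reads of the 5p arm. Its place in this count is therefore no support for its odds. miR-125b-2 had no estimate in KD and miR-142 had none in either state, so neither could be counted. miR-27b-5p, the same arm of the b cluster, had 3 reads in NR cats and 0 in the other libraries, beside 417 reads of miR-27b-3p in NR cats. The reads were placed on the mouse sequence, aGGGCTTAgctgcttgtgagca for miR-27a-5p (chr8:84208685-84208706), and the cat and dog sequences of this arm were not analysed here.

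Dogs had less miR-27b-3p than cats in both states, as a share of reads and on normalized levels. No dog over cat median of all names is given here, so these ratios have no background beside them. As a share of the mature miRNA reads miR-27b-3p was 0.406% in KD dogs (0.358 to 0.458%) and 0.719% in KD cats (0.616 to 0.835%), a ratio of 0.564 (0.463 to 0.689). It was 0.460% in NR dogs (0.373 to 0.561%) and 2.23% in NR cats (2.02 to 2.45%), a ratio of 0.206 (0.163 to 0.258). On normalized levels the dog over cat ratios of miR-27b-3p were 0.339 in KD (0.278 to 0.413) and 0.137 in NR (0.109 to 0.171). miR-23b-3p was also lower in NR dogs than in NR cats as a share, with a ratio of 0.403 (0.162 to 0.926). In KD this ratio was 2.44 (0.552 to 22.3), on 13 reads in KD dogs and 2 in KD cats. Relative to the miR-27 pair, the miR-23 pair was higher in dogs, with odds of 6.29 for KD dogs over KD cats (1.5 to 56.1) and 2.34 for NR dogs over NR cats (1.16 to 4.57).

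Sums of cell type markers differed between the pools. Beside them, the median log2 fold change of all names with a mean level of at least 10 was -0.26 in cats and 0.98 in dogs. For the marker lists in dogs it was 3.16 (white blood cell), 2.45 (red blood cell), 0.76 (renal tubule), 0.55 (epithelial) and -0.90 (smooth muscle). The renal tubule, epithelial and smooth muscle lists in dogs were thus below the median of all names. The 6 white blood cell names had a summed level of 295 in KD cats and 787 in NR cats, with miR-142-3p, miR-223-3p and miR-155-5p at 0 in KD cats. Their sum was 123 in KD dogs and 11.7 in NR dogs, with 4 of the 6 at 0 in NR dogs. The 4 red blood cell names summed to 2892 in KD cats and 577 in NR cats, and to 1410 in KD dogs and 121 in NR dogs, and miR-486-5p held 1212 of 1227 reads in KD cats, 325 of 498 in NR cats, 2564 of 2656 in KD dogs and 142 of 175 in NR dogs. In the KD cat pool the other red blood cell names were scarcer. miR-451a had 1 read in KD cats and 32 in NR cats, miR-16-5p had 14 against 140, and miR-144-3p had 0 against 1. The median log2 fold change of this list in cats was -2.26. The 4 renal tubule names summed to 1442 in KD cats and 1348 in NR cats, and to 1354 in KD dogs and 753 in NR dogs. In cats miR-30a-5p carried this sum, with 585 reads in KD cats and 1034 in NR cats. The other 3 had fewer reads in the KD pool, 19 against 70 for miR-192-5p, 0 against 7 for miR-194-5p and 8 against 53 for miR-204-5p, and the median log2 fold change of the list in cats was -0.84. The 5 epithelial names summed to 132 in KD cats and 82.2 in NR cats, and to 279 in KD dogs and 115 in NR dogs. Of their reads, miR-141-3p held 388 of 526 in KD dogs and 93 of 167 in NR dogs. The smooth muscle sum, all of it miR-143-3p, was 207 in KD cats and 240 in NR cats, and 6.90 in KD dogs and 13.8 in NR dogs. The part of these shifts in the values of the miR-23, miR-27 and miR-24 members was not tested, and a pool with fewer vesicles of a cell type cannot be told apart from one with less of the miRNA per vesicle.

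For likeness of profile, names were ranked by the SD over the 4 libraries of the difference in log2(reads + 1), which a scaling does not change, among 41 names with at least 100 reads in all. Of the 5 members only miR-27b-3p had that many, so the other members could not be found and likeness among mates cannot be read from this ranking. The name most like miR-27b-3p was miR-127-3p (SD 0.29), followed by miR-320-3p (0.55) and let-7f-5p (0.56). miR-23b-3p was most like miR-181a-5p (0.18), miR-204-5p (0.18) and miR-22-3p (0.43). miR-27a-3p was most like miR-30a-5p (0.19), miR-125a-5p (0.30) and miR-191-5p (0.33). For miR-23a-3p the nearest were miR-26b-5p (0.71), miR-181a-5p (0.74) and miR-204-5p (0.74). For miR-24-3p they were miR-143-3p (1.10), miR-27b-3p (1.18) and miR-191-5p (1.24). The profiles of the members with few reads carry counting error, and 4 libraries allow no more than this description.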

How the data were processed

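Urinary exosome RNA was sequenced as 1 pooled library per group. The authors removed adaptors and too short reads, placed the rest on the mouse genome with Bowtie 1.0.0 (several locations allowed) and counted them over mm10 small RNA features in StrandNGS. How reads with several locations were counted is not given in the sources used here. The processing notes also name CASAVA 1.8.2. The deposited read counts are unnormalized. On the log2 scale, the deposited normalized value of an entry is its count times 1 TMM factor per library, and results below 0 are written as 0, so levels were computed from counts and factors. The table has 4 emptied lines, which are not analysed here.

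Genomic copies of a name were summed. No test was run, since each group has 1 library. Ratios have exact conditional intervals, shares exact binomial and odds ratios exact conditional intervals, all at 95%, and 0 reads were taken as at most 3. Calls used a mean level of at least 10 and a fold of 2. Medians used log2 with 1 added. The named miRNAs were the 5 members, their other arms, the 3 most similar names for each, up to 3 more uneven clusters and marker lists. Members and lists were chosen with earlier results of these data known. The 7 scalings were the deposited factors, total count, none, median of ratios (DESeq2 1.42.0), TMM (edgeR 4.0.16), and totals without miR-10a and miR-10b or also without miR-486 and miR-3107. All but the read counts were set to the mean level of the deposited factors within a species. The intervals were tested on simulated counts with counting error alone, so that test says nothing on the spread between animals. Python 3.11.15, scipy 1.17.1 and R 4.3.3 were used.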

Additional observations from a re-analysis of the deposited data

Results flagged for a closer look

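On the deposited factors 3 members had opposite directions from NR to KD in cats and dogs. The difference between the species was not tested, since each group is 1 library. For miR-27b-3p the log2 fold change in dogs minus that in cats was 1.31 (1.04 in dogs and -0.26 in cats), with counting intervals that do not overlap. It was 2.45 for miR-23b-3p (0.15 in dogs and -2.30 in cats) and -2.72 for miR-24-3p (-2.38 in dogs and 0.35 in cats), with counting intervals that overlap. The directions were opposite under 4 of 7 scalings for miR-27b-3p, 2 for miR-23b-3p and 5 for miR-24-3p. The medians of all names, 0.98 in dogs and -0.26 in cats, differ by about as much as the values of miR-27b-3p do.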

How the results depend on the processing

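No paired analysis was possible because each group is 1 library. Values with no test were compared with their counting interval, and the cause of a move was not tested. For miR-27b-3p in cats the log2 fold change was -1.63 with total count scaling, -1.29 on read counts, -0.58 when miR-10a and miR-10b were left out of the total, 0.27 when miR-486 and miR-3107 were left out too, and 0.00023 relative to the median. In dogs it turned to -0.18 with total count scaling and -0.42 without miR-10a and miR-10b, and was 1.42 on read counts, 0.20 with DESeq2, 0.22 with edgeR, 0.085 without miR-10, miR-486 and miR-3107, and 0.063 relative to the median. miR-27a-3p in dogs was 0.15 with total count scaling and -0.085 without miR-10a and miR-10b, and miR-23b-3p in dogs was -1.31 without miR-10a and miR-10b. Of 74 alternative values of the members' fold changes, 59 stayed within the counting interval. The intervals of members with few reads are wide, and a value within them can have the other sign. miR-27a-3p in cats, at 0.32 with the deposited factors and -1.05 with total count scaling, was counted as within. The 8 for miR-23a-3p in cats have no lower limit and ran from -3.65 with 1 added to each level to -0.18 without miR-10, miR-486 and miR-3107. All 20 single-pair odds ratios stayed within their intervals, which are wide too. The share of miR-27a in NR cats was 6.87% with both arms summed. With mates of at least 1 read, which brings in the a place of miR-24-3p, the spread of the a cluster was 4.33-fold in NR cats, 27-fold in KD dogs and 8-fold in NR dogs. With miR-24-3p summed over both places, chosen after the data were seen, that of the a cluster in KD dogs was also 27-fold. With miR-24-3p left out, chosen likewise, that of the b cluster was 20.9-fold in NR cats and 19.8-fold in KD dogs.

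The number of names past 2-fold depended on many of the choices but not on all. Near the main counts in cats were those with DESeq2 (15 higher and 24 lower) and with edgeR (17 and 19). In cats 16 were higher and 23 lower, against 5 and 51 with total count scaling, 7 and 36 on read counts, 47 and 108 with no filter and 1 added to each level, 5 and 10 with a mean of at least 50, and 4 and 8 with a value over 150 in the higher library. It was 13 lower without miR-10, miR-486 and miR-3107 and 14 lower at a fold of 3. In dogs 24 were higher and 0 lower, against 5 and 8 with total count scaling, 47 and 1 on read counts, 11 and 5 with DESeq2, 11 and 5 with edgeR, 4 and 12 without miR-10a and miR-10b, 9 and 5 without miR-10, miR-486 and miR-3107, 59 and 13 with no filter and 1 added to each level, and 37 and 3 at a fold of 1.5. It was 12 higher with a mean of at least 50, 14 higher at a fold of 3 and 8 higher with a value over 150, with 0 lower each time. Median log2 changes of the marker lists moved too. Over all settings in cats they ran from -3.08 to -0.76 for white blood cells, -3.61 to 0.33 for red blood cells (the 0.33 with a mean of at least 50), -2.19 to -0.32 for renal tubule, -1.02 to 0.79 for epithelium and -1.57 to 0.32 for smooth muscle. In dogs they ran from 1.81 to 3.60, 1.01 to 3.78, -0.64 to 1.13, -0.82 to 1.67 and -2.21 to -0.58 for the same lists. For the other arms in cats they ran from -1.62 to 0.18. Depth limits the 4 members with at most 27 reads.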
